A study of Homo sapiens with 13 samples.

Results

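Keratins are the proteins of the intermediate filaments of epithelial cells. The group described here holds 10 genes: the keratins KRT5, KRT6B, KRT14, KRT15 and KRT17, which are used as markers of basal mammary cells, the keratins KRT7, KRT8, KRT18 and KRT19, which are used as markers of luminal mammary cells, and TP63, the transcription factor of basal epithelia. They were chosen by gene name. Each gene was read from its probe set with the highest mean over the 13 arrays. For 7 of the 10 genes a probe set carried the gene's symbol and no other. Of these, 6 (KRT5, KRT14, KRT15, KRT7, KRT8 and KRT18) passed the filter on dim genes, out of 7731 that passed among 11963 genes in all. No probe set carried the symbol of KRT6B, KRT17 or TP63 alone in the annotation used, and probe sets with several symbols were not read. These 3 genes were therefore not analysed here. KRT19 had a probe set that did not pass the filter.

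The cells were MCF10A, a human mammary epithelial line that became immortal spontaneously and is not tumorigenic. All of them had been deprived of serum for 24 h. Cells were then stimulated with EGF, the ligand of the EGF receptor, or with what the submitters named serum (horse serum together with cholera toxin, insulin and hydrocortisone), and were measured 20, 40, 60, 120, 240 and 480 min later, or were left unstimulated. Each of these 13 conditions was measured on 1 Affymetrix array with no replicate, so precision is limited by how few arrays there are. The 3 arrays of 20, 40 and 60 min of a stimulus are called early and its 3 arrays of 120, 240 and 480 min late, and p-values measure only the spread between single arrays of different times or stimuli.

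A keratin filament is built from pairs, each of 1 acidic (type I) and 1 basic or neutral (type II) keratin. KRT14, KRT15, KRT17, KRT18 and KRT19 are type I, and KRT5, KRT6B, KRT7 and KRT8 are type II. KRT5 pairs with KRT14 in basal cells of stratified and glandular epithelia, and KRT8 pairs with KRT18 in simple and luminal epithelia. KRT6B and KRT17 are known for their induction in injured epidermis, and TP63 drives KRT5 and KRT14 transcription in keratinocytes. The type II genes lie together on chromosome 12, where the type I gene KRT18 is the neighbour of KRT8, and the other type I genes of the group lie together on chromosome 17, where KRT15 and KRT19 are neighbours. TP63 is on chromosome 3.

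The arrays carried an epithelial profile. All 5 epithelial markers (CDH1, EPCAM, DSP, CLDN7 and ITGB4) passed the filter, with a summed signal of 6353.9 to 8111.2 on the EGF arrays, 7621.2 to 9906.3 on the serum arrays and 7914.2 on the unstimulated array. None of the 5 endothelial markers passed (summed signal 27.8 to 60.8 after EGF, 35.2 to 104 after serum and 59.8 unstimulated). Of the fibroblast markers 3 of 7 passed (COL1A1, PDGFRB and DCN; summed signal 212.7 to 425.5, 267.6 to 533.6 and 393.2 in the same order), of the leukocyte markers 1 of the 4 with a probe set (CD14; 124.7 to 234.8, 118.6 to 294.4 and 188.9), and of the contractile myoepithelial markers 2 of 5 (ACTA2 and MYLK; 145.9 to 202.7, 181.2 to 209.4 and 159.7). The part of these lists in the keratin values was not tested. Signals under 20 made up 33.3% of the serum array of 20 min and 36.8% to 40.0% of each other array. In whole-culture RNA, fewer cells of a kind and less RNA per cell cannot be told apart.

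KRT15, a type I keratin of basal cells, was the member with the largest difference over time. Its deposited signal was 2157.6 on the unstimulated array. After EGF it was 2039.4, 2333.3, 1697.1, 1327.3, 422.3 and 404.9 at 20, 40, 60, 120, 240 and 480 min. After serum it was 1438.0, 1997.9, 2152.7, 1465.3, 551.9 and 181.2 at the same times. The 4 arrays of 240 and 480 min were the lowest of the 13, and all of them lay below every array of the first 120 min. This split was made after the values had been seen, and no share of all genes was counted for it. Against the unstimulated array the signal was 5.11-fold lower at 240 min and 5.33-fold lower at 480 min after EGF, and 3.91-fold lower and 11.9-fold lower at those times after serum.

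**Figure D1:**
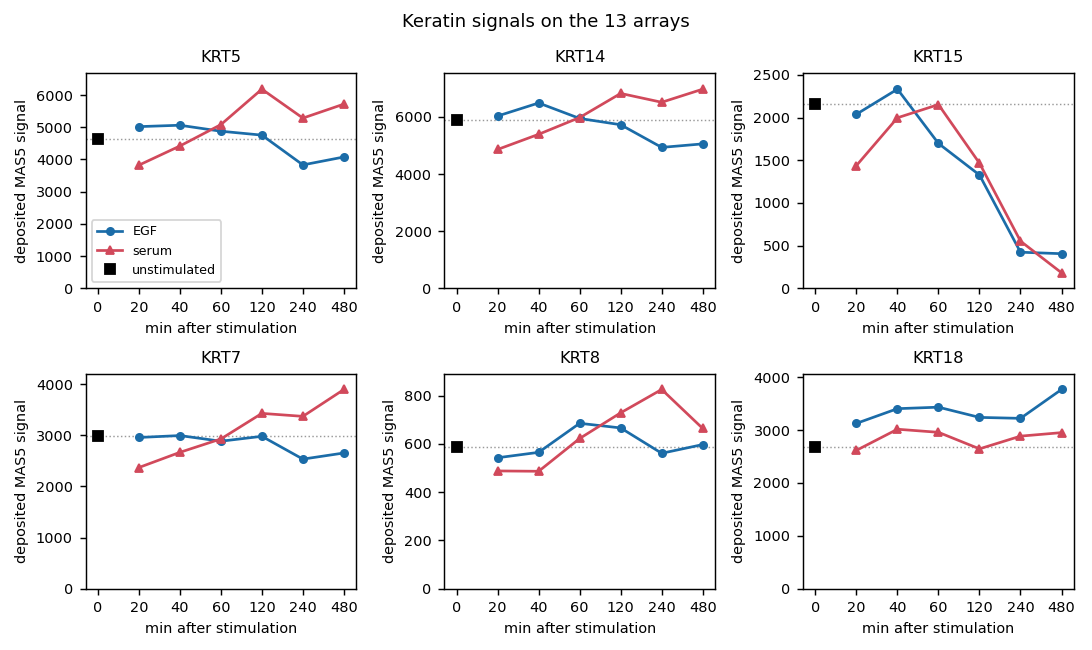
Deposited signal (linear scale, each axis from 0) of the 6 keratins that passed the filter against time in min (times evenly spaced on the axis), 1 array per point, with EGF as circles, serum as triangles and the unstimulated array as a square and dotted line. KRT15 is at 181.2 to 551.9 on the 4 arrays of 240 and 480 min and at 1327.3 or above on all others, while KRT5, KRT14 and KRT7 lie lower after EGF than after serum from 120 min on.

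Averaged over the 3 arrays of a phase, the KRT15 signal was 718 ± 528 late and 2023 ± 318 early after EGF (SD, n = 3 each). After serum it was 733 ± 661 late and 1863 ± 376 early (SD, n = 3 each). In both courses the 120 min array was the highest of the 3 late ones, and after serum the 240 and 480 min arrays also lay apart. Late minus early over both stimuli, the log2 difference was -1.76 (SE 0.45, 95% interval -2.74 to -0.77, n = 6 and 6), with a limma adjusted p of 0.0553, just short of the 0.05 threshold. The difference was -1.72 (SE 0.63, adjusted p = 0.253) after EGF and -1.79 (SE 0.63, adjusted p = 0.149) after serum, both by limma. Without the EGF array of 120 min the difference over both stimuli was -2.04 (SE 0.42, limma adjusted p = 0.0324), and without the serum array of 120 min it was -2.12 over both (SE 0.36, limma adjusted p = 0.0142) and -2.52 after serum (SE 0.53, limma adjusted p = 0.0424), all 3 past the threshold. After EGF, without the EGF array of 120 min, it was -2.28 (SE 0.62, limma adjusted p = 0.147) and did not pass. The 120 min arrays were the highest late ones, so leaving 1 of them out had to enlarge the fall. The passes above are therefore not independent evidence of it. With each of the 13 arrays left out in turn, the difference over both stimuli ran from -2.12 to -1.38. Without the serum array of 480 min the serum difference was -1.05 (limma adjusted p = 0.347). Counted from the most negative difference, KRT15 stood 8th of the 7731 genes over both stimuli.

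A comparison of the 240 and 480 min arrays alone with the early arrays was added after the values had been seen. In it KRT15 fell past the threshold over both stimuli (log2 -2.40, SE 0.26, 5.28-fold lower, limma adjusted p = 0.00383), after EGF (log2 -2.28, SE 0.37, 4.86-fold, adjusted p = 0.0447) and after serum (log2 -2.52, SE 0.37, 5.74-fold, adjusted p = 0.0152). The share of all genes called in these comparisons was 5.94%, 0.453% and 2.64% in the same order, and KRT15 was the 1 member called in each. Since the times were picked with the KRT15 values in view, these p-values describe the size of the difference against the spread and are not independent evidence of it.

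Set against the single unstimulated array, the mean of the EGF and serum arrays of each time gave log2 differences for KRT15 of -0.41 at 20 min, -0.14 at 40 min, -0.29 at 60 min, -0.75 at 120 min, -2.29 at 240 min and -3.08 at 480 min (SE 0.40 each, n = 2 and 1). The limma adjusted p was 0.187 at 240 min and 0.123 at 480 min, where 0 of 7731 genes (0%) were called at either time. KRT15 was 1 of the 753 genes at 240 min (9.74%) and 1 of the 906 genes at 480 min (11.7%) with an unadjusted p under 0.05, and no other member was among them. Its difference was the third most negative of all genes tested at 240 min and the most negative at 480 min.

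For KRT15 no difference between EGF and serum passed the threshold. The log2 difference EGF minus serum was 0.42, 0.19, -0.31, -0.14, -0.39 and 1.07 from 20 to 480 min, above 0 at 3 of 6 times. Over all times it was 0.14 (SE 0.19, 95% interval -0.30 to 0.58, limma adjusted p = 0.718), and over the late arrays 0.18 (SE 0.29, adjusted p = 0.767). The value of 1.07 at 480 min rests on 1 EGF and 1 serum array.

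KRT5 and KRT14, the basal pair, were lower after EGF than after serum on each of the late arrays, by differences that did not pass the test. The KRT5 signal was 5020.7, 5064.0, 4878.3, 4756.8, 3831.3 and 4078.0 at 20 to 480 min after EGF. It was 3823.2, 4418.5, 5082.7, 6184.8, 5285.6 and 5721.1 after serum, and 4636.3 without stimulation. Every late EGF array lay below every late serum array, while the early arrays overlapped. KRT5 averaged 4222 ± 479 late after EGF and 5731 ± 450 late after serum (SD, n = 3 each).

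The stretch before the KRT5 start site is shown because KRT5 and KRT14 varied together over the arrays and KRT5 is the member of that pair with an entry in the promoter table used. It is from RefSeq (GRCh38.p14, chr12:52520395-52520644, minus strand), runs 5′ to 3′ through the 250 bases before the start, and has the motif matches in capitals.
KRT5: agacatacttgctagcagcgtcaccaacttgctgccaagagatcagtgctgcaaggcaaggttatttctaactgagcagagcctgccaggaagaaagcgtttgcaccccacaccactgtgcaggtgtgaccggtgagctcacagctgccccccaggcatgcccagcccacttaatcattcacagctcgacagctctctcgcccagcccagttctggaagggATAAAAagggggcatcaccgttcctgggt
The capitals mark ATAAAA, a variant of the TATA box, at 29 to 24 bases before the start, which was added to the search after the sequence had been read and is held by 14.8% of 35116 promoters of the same length. On either strand there was no match to TATAAA (the TATA box, in 10.7% of promoters), GGGCGG (the GC box, 42.6%), TGANTCA (the AP-1 motif, 6.57%) or GCCNNNGGC (the AP-2 motif, 19.8%). Entries for 3 of the 10 genes were found in that table, KRT5, KRT8 and TP63.

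The KRT14 signal was 6034.2, 6491.1, 5948.6, 5728.4, 4934.5 and 5057.9 at 20 to 480 min after EGF. It was 4862.9, 5393.9, 5982.0, 6825.6, 6515.8 and 6975.0 after serum, and 5905.3 without stimulation. The late arrays again did not overlap, with 5240 ± 427 after EGF and 6772 ± 234 after serum (SD, n = 3 each). EGF minus serum over the late arrays gave a log2 difference of -0.26 for KRT14 (SE 0.10, limma adjusted p = 0.226) and of -0.32 for KRT5 (SE 0.10, limma adjusted p = 0.158). Neither passed the threshold. Over the early arrays the difference was -0.03 for KRT14 (SE 0.10, limma adjusted p = 0.913), which was 0.19 without quantile normalization, and 0.00 for KRT5 (SE 0.10, 95% interval -0.23 to 0.23, limma adjusted p = 0.998), which was 0.18 without quantile normalization.

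**Figure D2:**
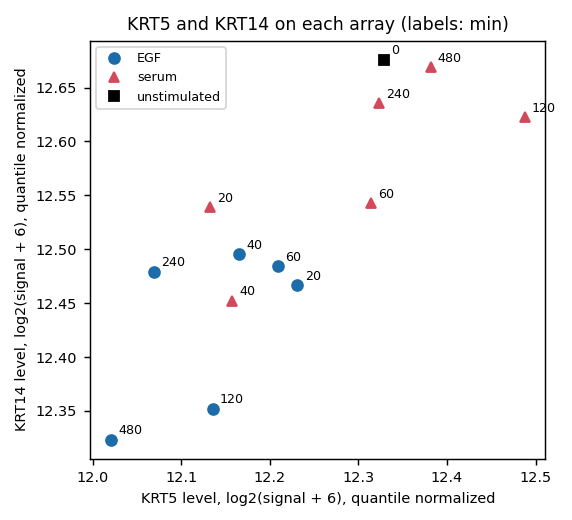
KRT14 level against KRT5 level on each of the 13 arrays, both as log2 of signal plus 6 after quantile normalization, with EGF as circles, serum as triangles, the unstimulated array as a square and the time in min beside each point. The late serum arrays lie at the upper right and the EGF arrays of 120 and 480 min at the lower left.

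Over the 12 stimulated arrays KRT5 and KRT14 had a Pearson r of 0.82 (permutation p = 0.00103, adjusted over 3 pairs 0.00309) and a Spearman rho of 0.77 (permutation p = 0.00491, adjusted 0.0147). Within the 6 EGF arrays r was 0.60 and within the 6 serum arrays 0.76. Without the 2 arrays farthest from the median of KRT5, the serum arrays of 120 and 480 min, r was 0.74. Arrays of 1 course share their cells' history and each array its scaling, so the 12 points are not fully independent and the p-values may be too small. For KRT5 with KRT15 r was 0.01 (permutation p = 0.974, adjusted 0.974; rho 0.12, permutation p = 0.716, adjusted 0.716), with 0.92 within EGF and -0.37 within serum, and 0.42 without those 2 arrays. For KRT8 with KRT18, the luminal pair, r was -0.29 (permutation p = 0.365, adjusted 0.547; rho -0.29, permutation p = 0.366, adjusted 0.55), with -0.08 within EGF and -0.66 within serum, and -0.22 without the 2 arrays farthest from the median of KRT8. The difference between the correlations of the basal and the luminal pair was not tested.

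KRT7, a type II keratin of ductal and other simple epithelia, was likewise lower after EGF than after serum on each of the late arrays. Its signal was 2960.3, 2997.9, 2887.1, 2983.2, 2536.3 and 2656.4 at 20 to 480 min after EGF. It was 2371.1, 2668.9, 2931.3, 3432.6, 3374.2 and 3901.3 after serum, and 2998.3 without stimulation. The late arrays did not overlap between the stimuli, with 2725 ± 231 after EGF and 3569 ± 289 after serum (SD, n = 3 each), and the late serum arrays also lay above all early serum arrays (2657 ± 280). The share of all genes whose late and early serum arrays lay apart was not counted. Late minus early the log2 difference was -0.04 after EGF (SE 0.10, limma adjusted p = 0.869) and 0.37 after serum (SE 0.10, limma adjusted p = 0.0719). EGF minus serum over the late arrays was -0.32 (SE 0.10, limma adjusted p = 0.18). The second KRT7 probe set read 2.4 to 27.3 and was not used, and with the mean of both probe sets the late minus early difference after serum was -0.08.

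KRT8, the type II keratin of simple epithelia, had a signal of 542.1, 564.5, 684.9, 665.6, 560.6 and 596.7 at 20 to 480 min after EGF. It was 487.4, 486.0, 621.9, 728.3, 825.1 and 663.5 after serum, and 587.2 without stimulation. The late arrays of the 2 stimuli overlapped at 663.5 and 665.6, with means of 608 ± 53.4 after EGF and 739 ± 81.3 after serum (SD, n = 3 each), and the late serum arrays lay above the early serum arrays (532 ± 78.1), a separation for which no share of all genes was counted. Late minus early the log2 difference was 0.01 after EGF (SE 0.14, limma adjusted p = 0.976) and 0.46 after serum (SE 0.14, limma adjusted p = 0.105). EGF minus serum over the late arrays was -0.27 (SE 0.12, limma adjusted p = 0.27), and without the EGF or the serum array of 240 min it was -0.14.

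KRT18, the type I partner of KRT8, was the 1 of the 6 members tested that was higher after EGF than after serum at every time. Its signal was 3126.2, 3404.5, 3432.6, 3239.2, 3221.2 and 3768.0 at 20 to 480 min after EGF. It was 2615.7, 3015.2, 2956.8, 2643.9, 2884.6 and 2951.0 after serum, and 2679.8 without stimulation. All 6 EGF arrays lay above all serum arrays and the unstimulated one in these deposited signals. After quantile normalization the EGF array of 20 min (log2 11.560) lay just below the serum array of 40 min (11.568). The share of all genes separated in this way was not counted. The log2 difference EGF minus serum was 0.11, 0.09, 0.18, 0.26, 0.32 and 0.44 from 20 to 480 min, above 0 in 6 of 6 pairs, for which no share of all genes was counted. Over all times it was 0.23 (SE 0.08, 95% interval 0.05 to 0.41, limma adjusted p = 0.168), and over the late arrays 0.34 (SE 0.10, limma adjusted p = 0.138), so it did not pass the threshold. Late minus early it was 0.13 after EGF (SE 0.10, limma adjusted p = 0.579) and -0.09 after serum (SE 0.10, limma adjusted p = 0.681).

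**Figure D3:**
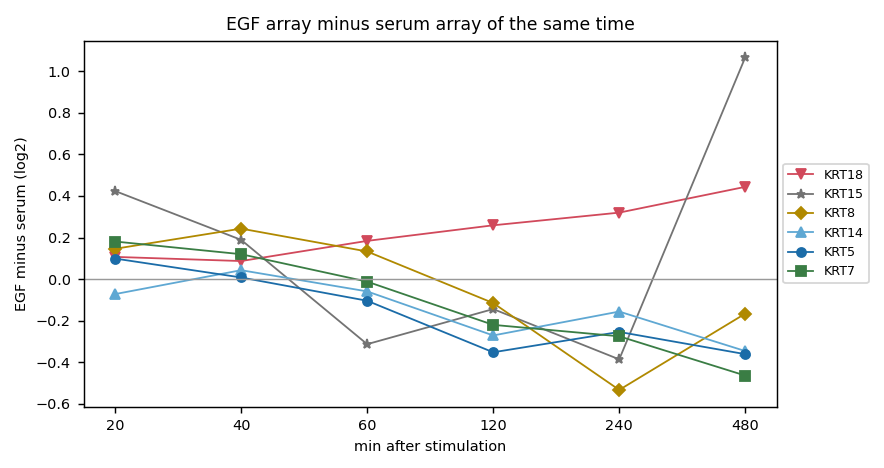
Log2 difference EGF minus serum (vertical axis) between the arrays of the same time in min (horizontal axis, times evenly spaced) for the 6 keratins tested, 1 pair of arrays per point. KRT18 is above 0 at all 6 times and reaches 0.44 at 480 min, KRT5, KRT7, KRT14 and KRT8 are below 0 from 120 min on, and KRT15 changes side.

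KRT19, a luminal type I keratin, had signals of 0.8, 1.4, 2.6, 0.9, 0.8 and 5.2 at 20 to 480 min after EGF. It had 0.9, 1.3, 0.7, 0.6, 0.7 and 0.9 after serum, and 0.9 without stimulation. These are among the dimmest values of the arrays and have no meaningful order. With no filter on dim genes KRT19 had an EGF minus serum difference of 0.22 (SE 0.13, limma adjusted p = 0.499) over all times.

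Across the 6 keratins tested, 0 passed the 0.05 threshold on the limma adjusted p in the comparisons of late with early arrays, of EGF with serum and of each time with the unstimulated array. KRT15 passed it in the added comparison of 240 and 480 min with the early arrays. Late minus early over both stimuli, 3.47% of all genes passed it (268 genes). An unadjusted p under 0.05 was reached by 3 of the 6 (KRT7, KRT8 and KRT15), against 23.9% of all genes. Within EGF 0.246% of all genes passed the adjusted threshold, and the unadjusted one was reached by 1 of 6 (KRT15), against 14.5% of all genes. Within serum 1.33% passed, and the unadjusted one was reached by 3 of 6 (KRT7, KRT8 and KRT15), against 20.2%. The median difference of the 6 was 0.03 over both stimuli, -0.07 within EGF and 0.16 within serum, against 0.02, 0.02 and 0.01 over all genes.

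**Figure D4:**
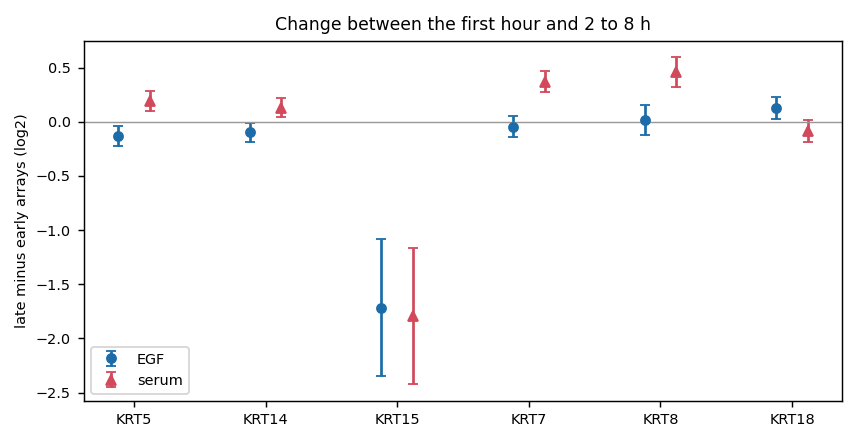
Log2 difference of the late minus the early arrays (vertical axis) for each of the 6 keratins tested, with EGF as circles and serum as triangles, and bars of 1 standard error. KRT15 is at -1.72 after EGF and -1.79 after serum, while every other member lies between -0.13 and 0.46.

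EGF minus serum over all times, 0.129% of all genes passed the adjusted threshold, and the unadjusted one was reached by 1 of 6 members (KRT18), against 20.6% of all genes. Over the early arrays 0 genes (0%) passed, and the unadjusted threshold was reached by 0 of 6 members, against 14.4%. Over the late arrays 0.75% passed, and the unadjusted one was reached by 4 of 6 (KRT5, KRT7, KRT14 and KRT18), against 18.9%. The same 4 were the members whose late EGF and late serum arrays did not overlap, 3 of them lower and KRT18 higher after EGF, against 22.5% of all genes that did not overlap in either direction. The median late difference of the 6 was -0.26, against 0.01 over all genes. With a variance trend and robust variances these 4 members passed the adjusted threshold (limma adjusted p = 0.00173 for KRT5, 0.00205 for KRT18, 0.00552 for KRT14 and 0.00638 for KRT7), as did 555 genes in all.

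Whether the EGF minus serum difference itself was different late and early was tested as an interaction of stimulus and phase. The log2 interaction was -0.45 for KRT8 (SE 0.16, limma adjusted p = 0.412), -0.42 for KRT7 (SE 0.14, limma adjusted p = 0.395) and -0.32 for KRT5 (SE 0.14, limma adjusted p = 0.446). It was -0.23 for KRT14, 0.22 for KRT18 and 0.08 for KRT15. Without quantile normalization it was -0.62 for KRT5, -0.56 for KRT14 and 0.05 for KRT18, and with the mean of both probe sets it was -0.10 for KRT7. With 1 array left out the KRT15 value ran from -0.37 to 0.36. Of all genes 0.0259% passed the adjusted threshold, and the unadjusted one was reached by 2 of 6 members (KRT7 and KRT8), against 11.1% of all genes.

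The other 25 keratin genes with a probe set included 4 that passed the filter (KRT9, KRT10, KRT16 and KRT75), of which KRT9 and KRT75 were close to its limit, with highest signals of 40.9 and 40.7. KRT10, the type I keratin of suprabasal epidermis, rose late over both stimuli (log2 0.56, SE 0.09, limma adjusted p = 0.0148) and after serum (0.77, SE 0.12, limma adjusted p = 0.0244), with a signal of 152.5 to 449.2 and a median of 213 over the 13 arrays. After EGF its late minus early difference was 0.35 (SE 0.12, limma adjusted p = 0.245). KRT16, known for induction in injured epidermis, had a difference of 0.74 after serum (SE 0.20, limma adjusted p = 0.0788) and of -0.07 after EGF (SE 0.20, limma adjusted p = 0.909).

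Desmosome and plakin genes were tested in a list of 18 genes, of which 17 passed the filter. The list also held other genes, such as KRT10, VIM and LMNA. Over both stimuli 1 of the 17 rose late (KRT10) and 0 fell, against 3.47% of all genes that passed in either direction. The median was 0.01, against 0.02 over all genes. EGF minus serum over the late arrays, DSG3, a desmosomal cadherin of basal layers, was lower after EGF (log2 -1.04, SE 0.16, limma adjusted p = 0.0491). It was the 1 gene of the 17 past the threshold, against 0.75% of all genes in either direction. The median of the list was -0.21 there, against 0.01 over all genes.

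Of 20 genes of the p63 family and of p63 targets 16 passed the filter, and late minus early over both stimuli 1 rose and 1 fell, against 3.47% of all genes that passed in either direction. SFN, which encodes the 14-3-3 protein sigma, rose (log2 0.37, SE 0.07, limma adjusted p = 0.0201), and FGFR2, a receptor of fibroblast growth factors, fell (log2 -0.49, SE 0.10, limma adjusted p = 0.0289). The median was -0.14, against 0.02 over all genes. Of 24 other basal mammary markers 19 passed the filter, and 0 rose and 0 fell, with a median of -0.05. The largest differences among these basal markers were -0.46 for MME, a cell-surface peptidase (SE 0.13, limma adjusted p = 0.0743), and 0.35 for the transcription factor SNAI2 (SE 0.11, limma adjusted p = 0.102). The p63 and basal lists share some genes, such as CDH3, ITGA6 and S100A2.

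Of 25 other luminal markers 12 passed the filter, and late minus early over both stimuli 1 rose and 3 fell, against 3.47% of all genes that passed in either direction. The median was -0.01, against 0.02 over all genes. ALDH1A3, a retinaldehyde dehydrogenase of luminal progenitors, rose (log2 1.30, SE 0.25, limma adjusted p = 0.0238). ELF3 and EHF, epithelial ETS transcription factors, fell (log2 -1.07, SE 0.24, limma adjusted p = 0.0393, and log2 -0.86, SE 0.18, limma adjusted p = 0.0281), and so did the receptor ERBB3 (log2 -0.58, SE 0.13, limma adjusted p = 0.0337). These 3 were dim, with highest signals of 121.5 for ELF3, 61.3 for EHF and 69 for ERBB3. EGF minus serum over the late arrays, 0 of the luminal markers and 0 of the other basal markers passed the threshold, with medians of -0.36 and -0.18 against 0.01 over all genes. The largest of these differences were -1.09 for MUC1 (SE 0.19, limma adjusted p = 0.0683) and -0.82 for ELF3 (SE 0.32, limma adjusted p = 0.237) among the luminal markers. Among the basal ones they were -0.43 for CAV2, a caveola protein (SE 0.09, limma adjusted p = 0.0916), and 0.42 for FSCN1, an actin-bundling protein (SE 0.27, limma adjusted p = 0.44). Of the p63 list, 0 genes passed there, with the largest differences at -0.69 for IGFBP3 (SE 0.23, limma adjusted p = 0.195) and 0.61 for JAG1 (SE 0.14, limma adjusted p = 0.0926).

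The genes whose level over the 13 arrays was most like that of a member were ranked by Pearson r among all genes tested. For KRT15 they were C1S, a complement protease (0.952), ALDH3A1, an aldehyde dehydrogenase (0.951), and SERPINF1, a secreted serpin (0.944). For KRT5 they were MUC1, a luminal mucin (0.929), SDC3 (0.912) and IGF2R (0.892), and for KRT14 they were FN1, the matrix protein fibronectin (0.914), IGF2R (0.88) and TRIT1 (0.867). For KRT7 they were PID1 (0.863), RRP7A (0.858) and RHEB (0.837), and for KRT8 they were TTPAL (0.883), RHEB (0.877) and FBXL18 (0.871). For KRT18 they were DCXR (0.931), LPXN (0.92) and IDI1 (0.915). IGF2R was on the lists of both KRT5 and KRT14, and RHEB on those of both KRT7 and KRT8. These are the highest of 7731 candidates per member, over arrays that share scaling and time course, and are given as a description.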

How the data were processed

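RNA of MCF10A cells was measured on 13 Affymetrix arrays of 22277 probe sets. The deposited values are intensities on a linear scale, signals made by the authors with MAS5 per the submitters' processing notes, with a version not given in the sources used here. Arrays came scaled to 1 level, since the mean after trimming 2% at each end was 150.04 to 150.05. For the EGF array placed at 20 min by its title, the description says 40 min.

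Signals were transformed as log2 of signal plus 6 and then quantile normalized (R 4.3.3, limma 3.58.1). Probe sets were named through the platform annotation (19064 with 1 symbol, 1043 with several, 2108 with none here, 62 controls left out). Each gene was read from its brightest probe set, and 7731 of 11963 genes were kept, those with a mean at or above the 40th percentile (4.68). Linear models (lmFit, eBayes) were fitted over all 7731 genes with two-sided p-values adjusted by Benjamini and Hochberg and a threshold of 0.05. Late minus early used the 12 stimulated arrays, EGF minus serum had time as a block, and each time was compared with the lone unstimulated array, which was assumed to vary like the others. Partner correlations used 100000 permutations. The named genes were all members, the list genes past the threshold in a comparison or otherwise the 2 with the largest difference, and the 3 genes most like each member, with KRT16, KRT9 and KRT75 named beside KRT10. The members and lists were chosen with earlier results of these data known. The models were tested on simulated data.

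The alternatives changed the offset (none, or 4 times as large), the normalization (none), the filter (none, or stricter), the probe sets used (mean, or second brightest), the variance model (trend and robust), the coding of time (a factor), and the arrays (each left out, both of 20 min left out and, as chosen after seeing the data, both of 120 min left out). They were run for the members and not for the genes of the lists. Figures used matplotlib 3.10.9, numpy 2.4.6 and pandas 2.3.3 in Python 3.11.15.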

Additional observations from a re-analysis of the deposited data

Results flagged for a closer look

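For 2 members every late EGF array lay on one side of the unstimulated array and every late serum array on the other, a difference seen in 358 of 7731 genes (4.63%). KRT7 was at log2 -0.167, -0.272 and -0.247 against the unstimulated array at 120, 240 and 480 min after EGF, and at 0.052, 0.003 and 0.217 after serum. KRT18 was at 0.115, 0.251 and 0.416 after EGF, and at -0.144, -0.069 and -0.028 after serum. The EGF side was not particular to the late arrays. At 20, 40 and 60 min KRT7 was at -0.17, -0.19 and -0.19 after EGF, and at -0.36, -0.31 and -0.17 after serum. KRT18 was at 0.06, 0.15 and 0.19 at those times after EGF. All these values rest on 1 unstimulated array. The opposite sides themselves were not tested. The direct comparison of late EGF with late serum arrays did not pass the threshold (limma adjusted p = 0.18 for KRT7 and 0.138 for KRT18). In the deposited signals, without quantile normalization, KRT7 kept its sides, while KRT18 was above the unstimulated 2679.8 on the serum arrays of 240 and 480 min (2884.6 and 2951.0).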

How the results depend on the processing

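The members called in late minus early over both stimuli were 0 as reported. They were 1 with 4 times the offset, a stricter filter, a variance trend with robust variances, time as a factor, or both 120 min arrays left out, and 0 to 1 when 1 array was left out (1 without the EGF or the serum array of 120 min). The member called was KRT15 in 6 of these settings and KRT7 in 1 (limma adjusted p = 0.0485). In late minus early after serum the members called were 1 with a stricter filter, 2 with the variance trend, 1 without both 120 min arrays, and 0 to 1 when 1 array was left out (1 without the serum array of 120 min). These serum calls were of KRT15 in 2 settings, of KRT7 in 2 and of KRT8 in 1. After EGF 1 member was called without both 120 min arrays (KRT15). With the variance trend 1 member was called in EGF minus serum over all times (KRT18), 4 over the late arrays and 1 in the interaction (KRT7). Calls among all genes in these comparisons reached up to 429, 555 and 70 over the alternatives, against 10, 58 and 2 as reported. At 480 min against unstimulated 1 member, KRT15, was called with 4 times the offset, a stricter filter or the variance trend. There the calls among all genes ran from 0 to 46 over the alternatives. KRT15 late minus early over both stimuli was -2.40 to -1.38 over 24 alternatives, with adjusted p of 0.00383 to 0.123. It passed in 6 of them. The value of -2.40 with adjusted p of 0.00383 came from leaving out both 120 min arrays, a setting chosen after seeing the data. The passes include that setting and those without the EGF or the serum array of 120 min. Each of these arrays was the highest late KRT15 array of its course, so these passes are not independent evidence of the fall.

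Without quantile normalization the difference from the unstimulated array turned for KRT5 at 40 (0.029), 60 (0.103), 120 (0.226) and 480 min (0.059), for KRT14 at those times (0.003, 0.015, 0.082 and 0.008), for KRT7 at 120 (0.094) and 480 min (0.102), for KRT18 at 120 min (0.127) and for KRT15 at 40 min (0.001), and KRT14 EGF minus serum early was 0.19. With the mean of both probe sets KRT7 was -0.131 late minus early over both stimuli, -0.08 after serum and -0.14 EGF minus serum early. Without both 20 min arrays KRT18 late minus early was -0.012, KRT8 after EGF -0.046, and EGF minus serum early -0.048 for KRT5 and -0.062 for KRT15. Without both 120 min arrays KRT5 late minus early was -0.003 and KRT8 after EGF -0.064. None of these passed the threshold, and the cause was not tested.

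Leaving out 1 array also turned small differences, with these lowest and highest values. Late minus early was -0.007 to 0.032 for KRT14 and -0.018 to 0.058 for KRT18 over both stimuli, and -0.064 to 0.108 for KRT8 after EGF. EGF minus serum was -0.107 to 0.048 for KRT8 and -0.046 to 0.245 for KRT15 over all times, -0.048 to 0.053 for KRT5 and -0.062 to 0.306 for KRT15 early, and -0.265 to 0.461 for KRT15 late. The KRT15 interaction was -0.365 to 0.361. Against unstimulated, values were -0.303 to 0.008 for KRT5 and -0.073 to 0.079 for KRT18 at 20 min, -0.35 to 0 for KRT8 at 40 min, -0.132 to 0.097 for KRT5, -0.122 to 0.007 for KRT7 and -0.03 to 0.001 for KRT18 at 120 min, -0.111 to 0.47 for KRT8 at 240 min, and -0.226 to 0.196 for KRT7 at 480 min. The partner correlation KRT5-KRT15 was -0.191 to 0.359.

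Over all genes the calls were 56 to 647 for late minus early over both stimuli, 0 to 69 after EGF and 9 to 414 after serum, and 1 to 429 for EGF minus serum over all times, 0 to 178 early, 0 to 555 late and 0 to 70 for the interaction. The EGF and serum arrays were paired by time, as the block, in each EGF minus serum fit. With 1 array per condition, the standard error of the late EGF minus serum difference was 0.10 for KRT5, KRT7, KRT14 and KRT18.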
